A study of Drosophila melanogaster with 18 samples.

Results

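Small RNA was compared between a pair of knockdown lines, Piwi-MatKD_2 and Piwi-MatKD_1, in whole Drosophila melanogaster embryos collected from 0 to 1.5 h at 25 °C. The genes compared were those with a mean of at least 10 expected counts over the 6 libraries of both lines, which were 1699 of the 17773 genes in the small RNA table. By maternal genotype the groups were 37483/MAT-Gal4 (Piwi-MatKD_1) and THU/MAT-Gal4 (Piwi-MatKD_2), with 41550/MAT-Gal4 (GFP-MatKD) as the control, and fathers of all groups were w1118. Each group had 3 small RNA libraries and 3 RNA libraries, so the series held 18 libraries. By these labels all mothers carried MAT-Gal4, the maternal germline driver, together with a hairpin transgene, so the GFP-MatKD embryos are not unmanipulated. The growth protocol describes females with the hairpin and males with the driver, which differs from the genotype labels, so the cross is uncertain. RNA of 20 to 30 nt had been cut from a 15% gel. Embryos came from cages of many mothers, and the labels do not say whether replicates were separate collections, so p-values measure the spread between these libraries, which may be technical.

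Piwi is an Argonaute protein that binds PIWI-interacting RNAs (piRNAs), small RNAs made from long precursors of transposon-rich loci called piRNA clusters, many of them in the heterochromatin near centromeres. In the Drosophila ovary Piwi and its piRNAs silence transposons in the nucleus, and mothers load both into the egg. A maternal hairpin transgene is itself cut into short interfering RNAs that match the gene it targets, so small RNA at piwi can stem from the hairpin or from the gene, and gene counts cannot tell these apart. Fewer embryos with a small RNA and less of it per embryo cannot be told apart in collections from many mothers either.

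In the order of replicate numbers, the Piwi-MatKD_1 libraries held 2.67, 2.34 and 2.29 M expected counts (M, units of 1000000). Those of Piwi-MatKD_2 held 1.88, 1.98 and 3.38 M. The 1699 genes held from 98.79% to 99.69% of these counts. Just outside the limit of 10 counts lay CG2182 with a mean of 9.98, and just inside it lay CG6790 and Zip99C, each with 10. Genes with any count numbered 8391, 10261 and 9830 in Piwi-MatKD_1 and 5506, 7519 and 9519 in Piwi-MatKD_2. Spearman correlations across the tested genes, which are not independent of each other, ran from 0.866 to 0.914 within Piwi-MatKD_1, from 0.875 to 0.916 within Piwi-MatKD_2 and from 0.765 to 0.868 between the lines. As a check of the labelled tissue, RNA of the maternal genes osk, nanos, gcl, pgc, vas and bcd was detected in all 9 RNA libraries, from 4957 normalised reads for nanos at the lowest to 31144 for osk at the highest. Ribosomal RNA genes took 10.9% and 5.90% of the tested RNA signal in the Piwi-MatKD_2 RNA libraries of 21.6 and 8.5 M reads and at most 0.535% in the other 7.

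Small RNA differed between the lines at 168 of the 1699 genes, or 9.89%, in edgeR's quasi-likelihood test with a Benjamini-Hochberg adjusted p under 0.05. It was higher in Piwi-MatKD_2 at 104 genes (6.12% of those tested) and lower at 64 (3.77%). The lines did not overlap at any of these 168 genes, nor at a further 224 genes with Piwi-MatKD_2 above and 218 with it below, which makes 610 genes or 35.9% of those tested. The higher genes included the heterochromatic genes Haspin and CG17493, piwi itself, the Sdic genes and 11 groups of genes with near-identical counts. The lower genes included IRSp53, aus, nxf2, mino and 4 ribosomal protein genes. Without Piwi-MatKD_1 replicate 2 or 3, 78 and 45 genes passed, and without Piwi-MatKD_2 replicate 1 or 2, 82 and 47 passed. With library totals in place of TMM factors (edgeR's scaling by a trimmed mean of ratios), the median log2 difference of all genes moved by -0.265, from -0.0681 to -0.333, and the split became 61 higher and 108 lower, so 36.1% of the called genes were higher against 61.9%. With DESeq2 the split was 77 higher and 74 lower, or 51.0% higher. It was 57 and 115 with no filter, or 33.1% higher, 48 and 53 with a mean of at least 50 counts (47.5%), and 44 and 45 with the 6 Piwi-MatKD libraries alone (49.4%). Of the 168 genes, 42 had a mean under 10 counts in 1 of the lines and met the limit only through the line where they were high, so their difference follows in part from that limit. These were 11 of the 104 higher and 31 of the 64 lower genes. Among all 1699 tested genes, 373 had a mean under 10 counts in 1 of the lines. The share among the called genes was close to this background, while that of the lower genes was above it and that of the higher genes below it.

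**Figure D1:**
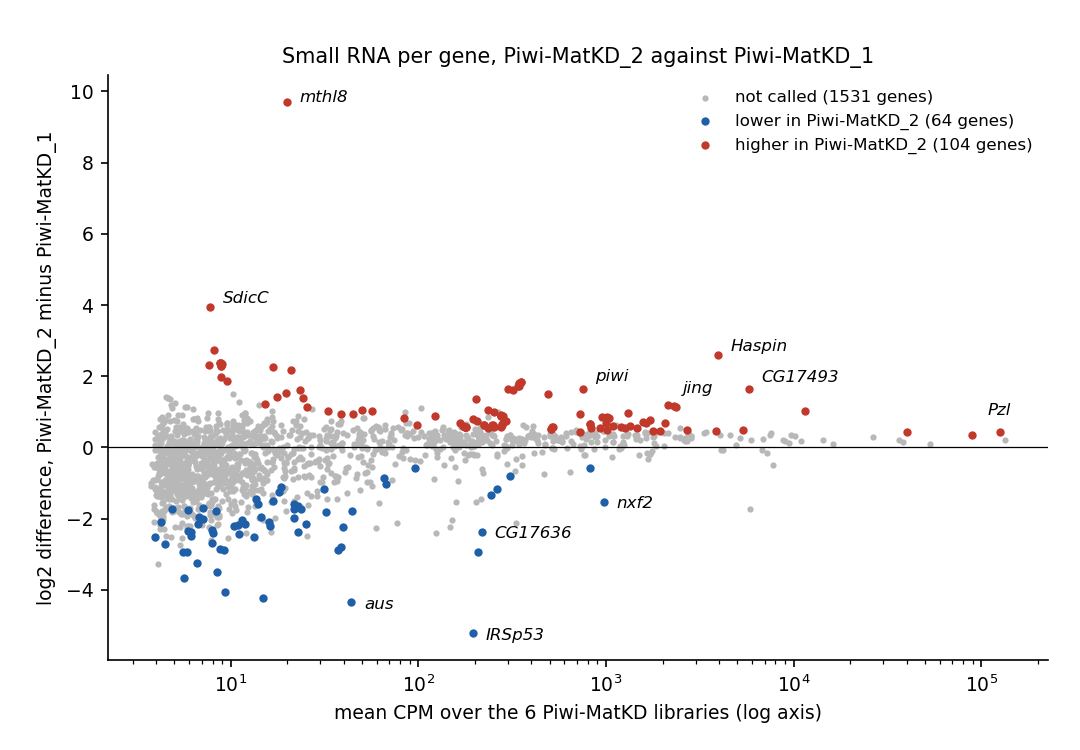
For each of 1699 genes the x axis gives the mean small RNA level over the 6 Piwi-MatKD libraries, in counts per 1000000 (CPM, log axis), and the y axis the log2 difference, Piwi-MatKD_2 minus Piwi-MatKD_1, with 104 higher and 64 lower genes in colour. Haspin and CG17493 stand out at high level with differences of 2.58 and 1.66, and most lower genes have low levels.

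The direction of the difference varied with the level of a gene. Among the 116 genes with a mean above 1000 CPM (counts per 1000000, after TMM scaling), 28 were higher in Piwi-MatKD_2 and 0 lower, and their median log2 difference was 0.326. Among the 354 genes from 100 to 1000 CPM, 49 were higher and 8 lower. Among the 716 genes of at most 10 CPM, 11 were higher and 24 lower, with a median of -0.600. The order of the medians from the lowest to the highest level was the same with library totals, from -0.862 to 0.0551, and with DESeq2, from -0.595 to 0.398. Higher genes had a median level of 279 CPM and lower genes one of 14.2 CPM. The share of ribosomal RNA genes moved with this as well. They took 0.0480%, 0.0435% and 0.0594% of the counts in Piwi-MatKD_1 and 0.0297%, 0.0199% and 0.0251% in Piwi-MatKD_2, which do not overlap, and their part in the result was not tested.

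**Figure D2:**
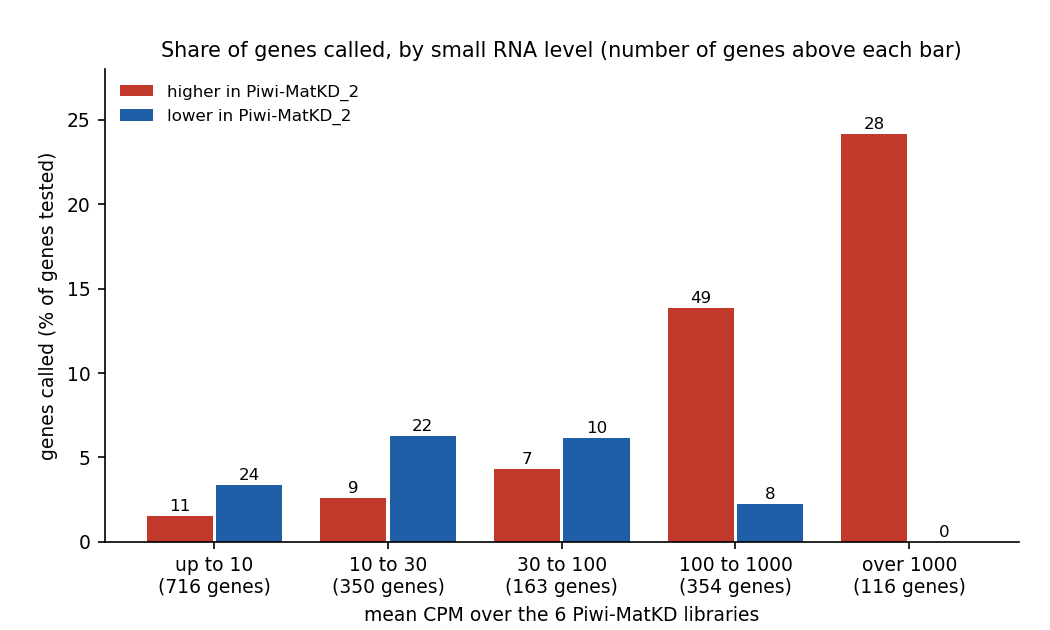
Bars give the percentage of tested genes called higher (red) or lower (blue) in Piwi-MatKD_2 in 5 ranges of mean small RNA level, in CPM over the 6 Piwi-MatKD libraries, and the number above a bar is the count of genes. Lower genes outnumber higher ones up to 100 CPM, and above 1000 CPM there are 28 higher and 0 lower.

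At piwi (FBgn0004872, 2L:10982205-10987420 in RefSeq's annotation of genome Release 6, the build named BDGP6; all positions are on it), small RNA was 363, 570 and 164 CPM in Piwi-MatKD_1 and 1020, 1232 and 1162 CPM in Piwi-MatKD_2. All 3 Piwi-MatKD_2 libraries lay above the Piwi-MatKD_1 libraries, and the GFP-MatKD libraries, with 7.78, 12.4 and 6.98 CPM, lay far below both. On the log2 scale Piwi-MatKD_2 exceeded Piwi-MatKD_1 by 1.64 (SE 0.37, edgeR adjusted p 0.0230). It no longer passed with library totals (1.36, edgeR adjusted p 0.0634), with the 6 Piwi-MatKD libraries alone (1.52, 0.0797), or without Piwi-MatKD_1 replicate 1 (1.56, 0.0581) or Piwi-MatKD_2 replicate 1 or 2 (1.69 and 1.47, 0.0587 and 0.0958). The genes next to piwi hardly held small RNA: SCAR, which overlaps piwi, had a mean of 2.83 counts over the 6 libraries. As a check of the knockdown, piwi RNA was 8748 ± 715 normalised reads in the GFP-MatKD control (SD, n = 3). It was 355 ± 85.7 normalised reads in the embryos of Piwi-MatKD_1 and 305 ± 299 in those of Piwi-MatKD_2. That RNA difference between the lines of -0.67 on the log2(value + 1) scale did not pass in limma (SE 0.59, adjusted p 0.743); it was -1.45 when the 21.6 M reads of Piwi-MatKD_2 were left out (adjusted p 0.0506) and -0.02 when its 8.5 M reads were left out (adjusted p 0.987). The 3 Piwi-MatKD_2 libraries, at 646, 87.7 and 182 normalised reads, enclosed the range of the Piwi-MatKD_1 libraries.

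Small RNA at Haspin (FBgn0046706, 2R:4014111-4049342), which encodes a mitotic histone kinase, was 1278, 1021 and 1100 CPM in Piwi-MatKD_1 and 8082, 5751 and 6558 CPM in Piwi-MatKD_2. GFP-MatKD, with 841, 1113 and 909 CPM, overlapped Piwi-MatKD_1, and every Piwi-MatKD_2 library lay above all 6 others. The difference between the lines was 2.58 (SE 0.16, edgeR adjusted p 4.35e-05), a 6.0-fold ratio of the means. At the neighbouring genes uex and asRNA:CR45139 the log2 differences were 0.01 and 0.35 and did not pass (edgeR adjusted p 0.957 and 0.235).

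CG17493 (FBgn0040010, 2L:22550064-22556295), a centrin-family gene near the centromere of its arm, held 2981, 2120 and 3280 CPM in Piwi-MatKD_1 and 10352, 7656 and 8394 CPM in Piwi-MatKD_2. The lines did not overlap, and GFP-MatKD had 2012, 2397 and 2054 CPM. The difference was 1.66 (SE 0.18, edgeR adjusted p 3.58e-04). The neighbours lncRNA:CR46268, Slmap and CG40006 had log2 differences of -0.28, 0.22 and 0.25, none of which passed. Of these, lncRNA:CR46268 had a mean of only 10.4 counts over the 6 libraries. Counts of Slmap lay within 10% of those of Adf1, JIL-1, NUCB1, Tim17a2 and meso18E in every library. That group spans 5 chromosome arms, so the value of Slmap may not be particular to this locus. Haspin and CG17493 passed under all 19 alternatives tried. Their RNA differed by 0.21 each, which did not pass in limma (adjusted p 0.920 and 0.874). Without the Piwi-MatKD_2 RNA library of 21.6 M reads these RNA values became -0.14 and -0.07, and without Piwi-MatKD_1 replicate 2 that of Haspin became -0.05.

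**Figure D3:**
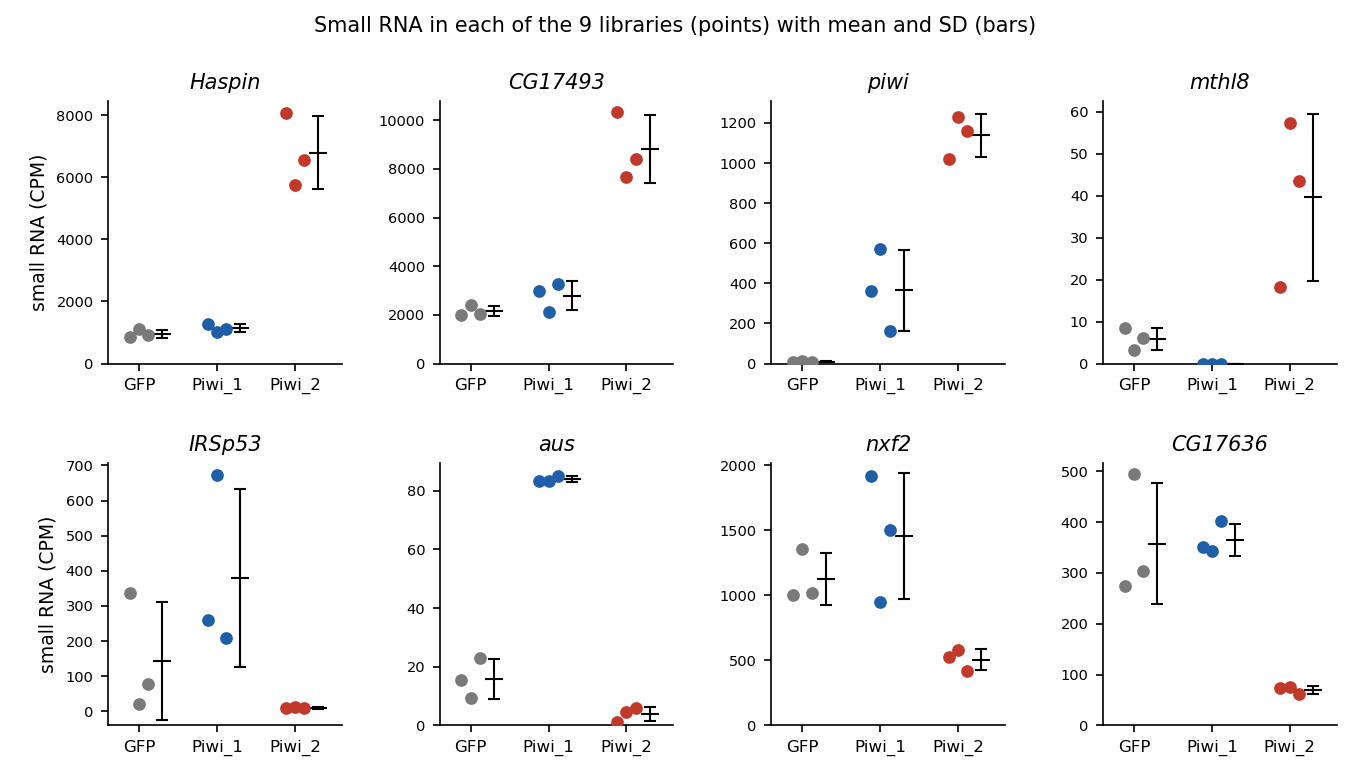
Small RNA in CPM is plotted for 8 genes in each library of GFP-MatKD (grey), Piwi-MatKD_1 (blue) and Piwi-MatKD_2 (red), with bars for the mean and SD of 3 libraries. Haspin and CG17493 are high in Piwi-MatKD_2 alone, piwi is high in both knockdown lines, and aus is at 83.3 to 85.2 CPM in Piwi-MatKD_1 and at 1.30 to 5.80 CPM in Piwi-MatKD_2.

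Heterochromatic genes as a list, with 27 tested of 31 listed, had 5 higher and 0 lower genes in Piwi-MatKD_2, against 6.12% higher and 3.77% lower over all genes. Log2 differences lay above 0 at 23 of the 27, against 789 of all 1699 genes. The list's median was 0.21 against -0.0681 over all genes, and under library totals it was -0.0594, below 0, against -0.333. Relative to all genes it stood 0.278 higher with TMM factors and 0.274 higher with library totals. DESeq2 called 3 genes of the list. Small RNA levels were high in this list, with 17 of the 27 genes above 1000 CPM, and of all 116 genes above that level 101 had differences above 0, with a median of 0.326, and 24.1% were called. The 5 were Haspin, CG17493, the RNA helicase gene Dbp80, the Piezo-like channel gene Pzl and the transporter gene lovit. At Dbp80 (FBgn0024804, 3L:27279316-27422159), small RNA was 9011, 6549 and 7161 CPM in Piwi-MatKD_1 and 17292, 15950 and 12644 CPM in Piwi-MatKD_2. These did not overlap, and the difference was 1.01 (SE 0.17, edgeR adjusted p 0.00880). Without Piwi-MatKD_1 replicate 3 or Piwi-MatKD_2 replicate 2 it was 0.91 and 0.89 (edgeR adjusted p 0.0669 and 0.0632).

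Much of the small RNA was counted at a few very long heterochromatic and Y-linked genes. Counts at these genes held fractions, and whether the reads counted at Y-linked genes came from the Y chromosome was not tested. Myo81F, a myosin gene, took a mean share of 12.9% of the counts over the 6 libraries, Pzl 12.1%, lovit 8.61%, the Y-linked gene WDY 5.16% and kl-3, a Y-linked gene for a sperm dynein heavy chain, 3.88%. Together these 5 took from 41.2% to 43.5% of a library. Pzl took 11.5%, 11.3% and 11.2% in Piwi-MatKD_1 and 12.8%, 13.0% and 12.8% in Piwi-MatKD_2, which did not overlap. The log2 differences of Pzl, kl-3 and lovit were 0.45, 0.44 and 0.35 (edgeR adjusted p 0.0201, 0.0201 and 0.0455). With library totals these were 0.18, 0.17 and 0.08 and still passed (edgeR adjusted p 9.74e-04, 0.00310 and 0.0407). Without Piwi-MatKD_1 replicate 2 or 3 or Piwi-MatKD_2 replicate 2 none of these 3 passed in edgeR, with adjusted p from 0.0624 to 0.377, and with DESeq2 the adjusted p was 0.107, 0.110 and 0.201. The call of lovit was also lost without Piwi-MatKD_1 replicate 1, Piwi-MatKD_2 replicate 1 or GFP-MatKD replicate 1 or 3, with edgeR adjusted p from 0.0523 to 0.0949. Of 19 alternatives, the calls of Pzl and kl-3 held in 12 each and that of lovit in 7. The highest edgeR or DESeq2 adjusted p of Pzl, kl-3 and lovit was 0.231, 0.220 and 0.403. Myo81F and WDY did not pass, with 0.20 and 0.09 (edgeR adjusted p 0.242 and 0.560). With library totals their sign turned, to -0.06 and -0.17, and WDY passed as lower (edgeR adjusted p 0.0330).

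Of 12 listed genes of the Y chromosome, most of which serve sperm formation, 8 were tested and 3 were higher, with 0 lower, against 6.12% higher over all genes. All 8 had log2 differences above 0, with a median of 0.327, or 0.0591 with library totals; DESeq2 called 1 of them. Of the 8 genes 6 stood above 1000 CPM, where the median of all genes was 0.326. The called genes were CCY, kl-3 and kl-2, at 0.74, 0.44 and 0.46 (edgeR adjusted p 0.0135, 0.0201 and 0.0413). CCY stood at 241, 199 and 217 CPM in Piwi-MatKD_1 and 391, 325 and 378 CPM in Piwi-MatKD_2, with no overlap between the lines, and GFP-MatKD at 300, 361 and 289 CPM overlapped Piwi-MatKD_2. Without Piwi-MatKD_1 replicate 3, CCY and kl-2 had edgeR adjusted p of 0.0937 and 0.282, and without Piwi-MatKD_2 replicate 2 of 0.0531 and 0.132. The call of CCY held in 16 of 19 alternatives. The call of kl-2 held in 7 of 19 alternatives. It was lost with library totals (0.19, edgeR adjusted p 0.0505) and with DESeq2 (adjusted p 0.119), and also without Piwi-MatKD_1 replicate 2, Piwi-MatKD_2 replicate 1 or GFP-MatKD replicate 1 or 3, with edgeR adjusted p from 0.0599 to 0.0931.

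At described piRNA clusters, 3 of 4 listed genes were tested and 1 was higher, against 6.12% over all genes. The zinc finger gene jing (FBgn0086655, 2R:6502006-6621792), which flanks a cluster active in the germline, held 1583, 1360 and 1326 CPM in Piwi-MatKD_1 and 3475, 3167 and 2977 CPM in Piwi-MatKD_2. GFP-MatKD, with 1732, 2089 and 1665 CPM, lay between the lines, which did not overlap. The difference was 1.17 (SE 0.12, edgeR adjusted p 3.58e-04), and it passed under all 19 alternatives. Pld, the gene on the other side of that cluster, was at 0.53 (edgeR adjusted p 0.0679), and lncRNA:flam, the cluster active in somatic cells of the ovary, was at 0.19 (edgeR adjusted p 0.317). Counts of jing lay within 10% of those of CG3777, a gene of the X chromosome, in all 9 libraries. Those of lncRNA:flam, on the X chromosome, lay within 10% of those of l(2)41Ab, on 2R. The values of jing and lncRNA:flam may therefore not be particular to these clusters.

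Of 44 listed genes of the piRNA pathway and the Argonaute family, 14 were tested, of which piwi was higher and nxf2 and mino were lower, against 6.12% higher and 3.77% lower over all genes. Their median log2 difference was -0.13, beside -0.0681 over all genes. The product of nxf2 works with Piwi in silencing transcription in the nucleus. Small RNA at nxf2 (FBgn0036640, 3L:16576859-16580306, overlapping mbf1) was 1915, 952 and 1498 CPM in Piwi-MatKD_1 and 522, 577 and 415 CPM in Piwi-MatKD_2. GFP-MatKD had 1002, 1357 and 1019 CPM, so all 3 Piwi-MatKD_2 libraries lay below the 6 others. The difference was -1.53 (SE 0.25, edgeR adjusted p 0.00602). The gene mino (FBgn0027579, 3R:27925191-27933077), which acts in piRNA production at mitochondria, was at 24.0, 23.8 and 30.7 CPM in Piwi-MatKD_1 and at 2.59, 6.62 and 8.37 CPM in Piwi-MatKD_2, a difference of -2.10 (SE 0.37, edgeR adjusted p 0.0101). The helicase gene armi was at -2.28 but did not pass (edgeR adjusted p 0.0539), and AGO1, AGO2 and AGO3 were at 0.13, 0.13 and 0.12. The RNA of nxf2 and mino differed by -0.16 and -0.01 and did not pass in limma (adjusted p 0.899 and 0.993).

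Of 16 germ plasm and maternal patterning genes 5 were tested, and 0 passed in edgeR in either direction, 0 had an unadjusted p under 0.05 and 0 passed in DESeq2. Their log2 differences ran from -1.37 for nanos to -0.02 for osk, with a median of -0.831. Of 6 hairpin RNA genes, which form long hairpins cut into short interfering RNAs, 2 were tested and 0 passed in edgeR, by unadjusted p or in DESeq2. The gene hpRNA:CR18854 was at 0.98 (edgeR adjusted p 0.245) and hpRNA:CR32205 at -0.01.

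Groups of genes with near-identical counts, meaning within 10% of each other in every library, held 39 of the 104 higher genes (37.5%) and 0 of the 64 lower genes. They held 254 of the 1699 tested genes (14.9%). Counted once per group, the 168 called genes came to 140. Across the 1699 genes, 2.88% had exactly whole numbers as deposited (a tolerance of 0) in all 6 libraries, and the others held fractions of counts in at least 1 library. How reads with several matches were divided is not given in the sources used here, and members of such a group are not separate observations.

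Outside the Sdic genes the group with the highest difference joined CG33267, CG42788, Eip78C (a nuclear receptor gene), bw (an eye pigment transporter gene), mwh and teq, which lie on 3 chromosome arms. Its median level was 174, 147 and 142 CPM in Piwi-MatKD_1 and 611, 417 and 575 CPM in Piwi-MatKD_2, with 221, 191 and 184 CPM in GFP-MatKD. All 6 members were higher in Piwi-MatKD_2, by 1.73 to 1.85, each with an edgeR adjusted p of 3.41e-04, and all passed under every alternative. A group of Ac78C, CG10947, CG43861, baz and twin had a median of 216, 191 and 172 CPM in Piwi-MatKD_1 and 390, 372 and 314 CPM in Piwi-MatKD_2. GFP-MatKD, at 106, 165 and 118 CPM, lay below both lines there, and the members differed by 0.89 to 0.90 (edgeR adjusted p 0.0186 to 0.0199). The weakest of the 11 groups, 2mit, Neto, lncRNA:CR45109 and para, had a median difference of 0.55.

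**Figure D4:**
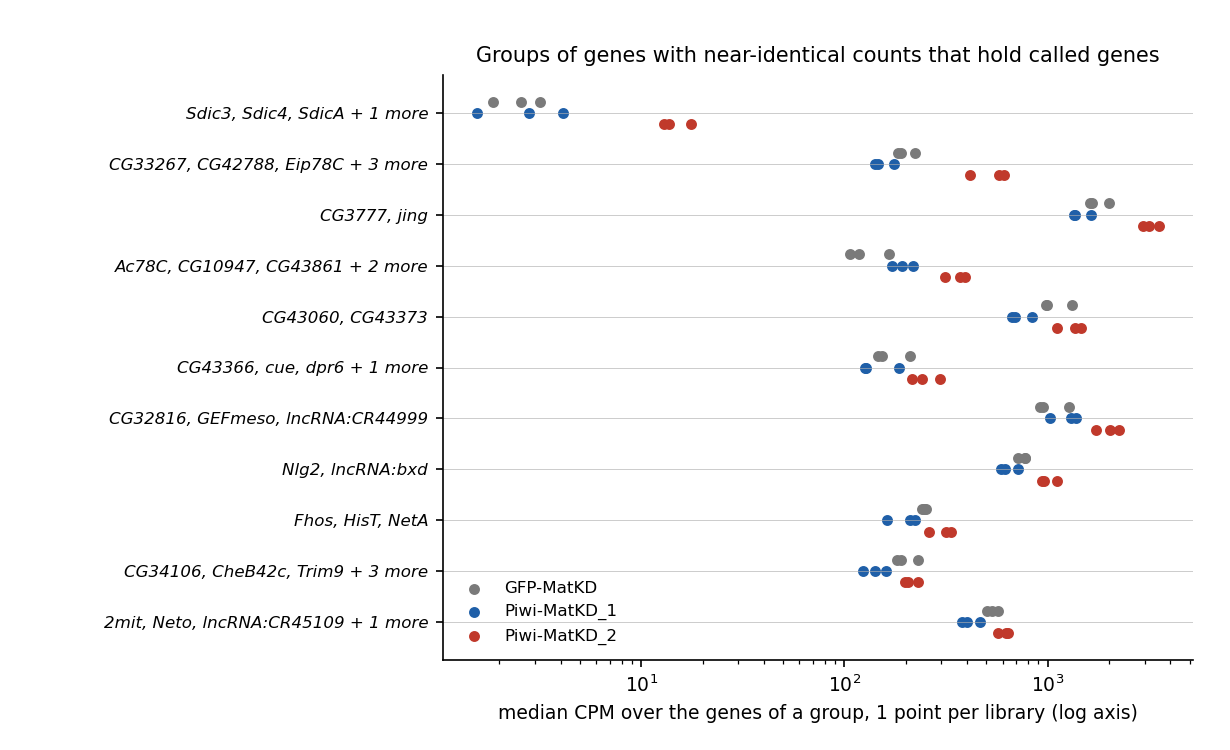
For the 11 groups of near-identical genes that hold called genes, the median CPM over the members is plotted for each library on a log axis, in GFP-MatKD (grey), Piwi-MatKD_1 (blue) and Piwi-MatKD_2 (red). In every group the Piwi-MatKD_2 libraries lie above the Piwi-MatKD_1 libraries, while the place of GFP-MatKD differs from group to group.

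The Sdic genes of the X chromosome encode sperm dynein intermediate chains and arose as tandem copies from sw, a cytoplasmic dynein gene, and its neighbour. All 7 tested Sdic genes and sw were higher in Piwi-MatKD_2, by 1.85 for sw to 3.95 for SdicC, and their summed level was 12.8, 32.0 and 21.9 CPM in Piwi-MatKD_1 and 111, 141 and 104 CPM in Piwi-MatKD_2. SdicC (FBgn0283434, X:20212738-20217259) had 0.387, 1.12 and 1.19 CPM in Piwi-MatKD_1 and 13.6, 17.7 and 12.6 CPM in Piwi-MatKD_2, with 0.623, 2.23 and 1.59 CPM in GFP-MatKD. Its difference of 3.95 (SE 0.57) had an edgeR adjusted p of 0.00297. All 7 tested Sdic genes had a mean under 10 counts in Piwi-MatKD_1 and were tested through Piwi-MatKD_2. Sdic3, Sdic4, SdicA and SdicB were near-identical in counts, so the 8 genes count as at most 5. Sdic2 fell outside that group through 4.06 expected counts against 3.56 for Sdic3 in Piwi-MatKD_1 replicate 1. The rounded CPM values of Sdic2 and Sdic3 were the same in all 9 libraries, so they are hardly separate observations. Sdic1, Sdic2, Sdic3, Sdic4, SdicA, SdicB and sw no longer passed without Piwi-MatKD_1 replicate 3, where Sdic1 had an edgeR adjusted p of 0.0588, or without Piwi-MatKD_2 replicate 2, with 0.0687.

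At mthl8 (FBgn0052475, 3L:22428-26308), a gene of the methuselah receptor family and the first annotated gene on its arm, the expected counts in Piwi-MatKD_1 were 0, 0.24 and 0. In Piwi-MatKD_2 it had 28, 103.5 and 134.74 expected counts, or 18.1, 57.4 and 43.5 CPM, and in GFP-MatKD 8.41, 3.18 and 6.02 CPM. Against a floor of 3 counts per library, or 1.16 CPM, small RNA was at least 34.3-fold higher in Piwi-MatKD_2 (edgeR adjusted p 8.67e-04), and it met the limit of 10 counts through Piwi-MatKD_2. The next genes along the arm, CG43149 and Lsp1gamma, had means of 1.83 and 1.73 counts.

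A pair of antisense RNA genes completed the highest differences. asRNA:CR45171 differed by 2.73 (SE 0.58, edgeR adjusted p 0.0201) and asRNA:CR44351 by 2.31 (SE 0.62, edgeR adjusted p 0.0455). Both held at most 18.8 CPM in any Piwi-MatKD library, so few counts lie behind them, and both had means under 10 counts in Piwi-MatKD_1. The call of asRNA:CR45171 was lost without Piwi-MatKD_1 replicate 1 or 2 or Piwi-MatKD_2 replicate 1 or 2 (edgeR adjusted p 0.0529 to 0.0691), and that of asRNA:CR44351 without any 1 of the 9 libraries (0.0559 to 0.181). Of 18 alternatives, the call of asRNA:CR45171 held in 13 and that of asRNA:CR44351 in 6. Each overlaps a coding gene, Cpr67Fb and CG13933, and whether counting used the strand is not given in the sources used here.

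Among the lower genes, IRSp53 (FBgn0052082, 3L:11136049-11163984), for an actin regulator that bends membranes, had 260, 671 and 208 CPM in Piwi-MatKD_1 and 9.07, 13.2 and 8.37 CPM in Piwi-MatKD_2. GFP-MatKD spread from 19.7 to 336 CPM, above all Piwi-MatKD_2 libraries. The difference was -5.22 (SE 0.99, edgeR adjusted p 0.0122), and without Piwi-MatKD_2 replicate 1 or 2 the adjusted p was 0.0574 and 0.0611.

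Small RNA at aus (FBgn0038881, 3R:21318300-21349601), which encodes australin, a chromosomal passenger protein of male meiosis, was 83.3, 83.4 and 85.2 CPM in Piwi-MatKD_1 and 1.30, 4.41 and 5.80 CPM in Piwi-MatKD_2. GFP-MatKD, at 15.6, 9.23 and 22.8 CPM, lay between the lines, and no groups overlapped. The difference was -4.35 (SE 0.46, edgeR adjusted p 3.58e-04), with a mean of 218 counts in Piwi-MatKD_1 and 9.44 in Piwi-MatKD_2.

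Golgin104 (FBgn0036614) had 185, 673 and 243 CPM in Piwi-MatKD_1 and 49.3, 63.4 and 30.9 CPM in Piwi-MatKD_2, a difference of -2.95 (SE 0.60, edgeR adjusted p 0.0166). It overlaps a transfer RNA gene, tRNA:Met-CAT-1-4, and without Piwi-MatKD_2 replicate 1 or 2 its adjusted p was 0.0649 and 0.0584. Piwi-MatKD_1 replicate 2 was the highest library at IRSp53, Golgin104 and ara, an Iroquois homeobox gene with 15.1, 57.7 and 11.9 CPM in Piwi-MatKD_1 and 0.648, 1.10 and 2.25 CPM in Piwi-MatKD_2. The mean of ara in Piwi-MatKD_2 was 3.04 counts, under the limit of 10. The difference of ara was -4.22 (SE 0.99, edgeR adjusted p 0.0290), and it did not pass without Piwi-MatKD_1 replicate 2 (-3.18, 0.0821) or without any 1 of the Piwi-MatKD_2 libraries, with adjusted p from 0.0534 to 0.107.

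CG17636 (FBgn0025837, X:124370-126714), the third annotated gene on the X chromosome, stood at 352, 343 and 401 CPM in Piwi-MatKD_1 and 74.5, 75.6 and 61.2 CPM in Piwi-MatKD_2, with 275, 494 and 304 CPM in GFP-MatKD. All Piwi-MatKD_2 libraries lay below the 6 others, with a difference of -2.38 (SE 0.23, edgeR adjusted p 3.41e-04). Its neighbours SteXh:CG42398 and RhoGAP1A were at -0.28 and -0.10 and did not pass. The immunoglobulin-family gene beat-IV had 401, 318 and 335 CPM in Piwi-MatKD_1 and 142, 119 and 153 CPM in Piwi-MatKD_2, a difference of -1.35 (SE 0.15, edgeR adjusted p 5.88e-04). CG17636 and beat-IV passed under all 19 alternatives. The Pax6 gene toy, on chromosome 4, was at -0.57 (SE 0.13, edgeR adjusted p 0.0230). This call held in 14 of 19 alternatives, with edgeR or DESeq2 adjusted p up to 0.323. Among others it was lost without Piwi-MatKD_1 replicate 3 (-0.63, 0.0847), without Piwi-MatKD_2 replicate 2 (-0.59, 0.0584) and with DESeq2 (-0.51, 0.120).

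The remaining genes at the low end were asRNA:CR46264, CG10375, RhoGAP100F and Ndfip, with log2 differences of -4.05, -3.66, -3.51 and -3.25. Each had at most 23.5 CPM in any Piwi-MatKD_1 library and at most 2.21 CPM in any Piwi-MatKD_2 library, so each difference rests on few counts, and all 4 met the limit of 10 counts through Piwi-MatKD_1. RhoGAP100F was lost without Piwi-MatKD_1 replicate 3 (edgeR adjusted p 0.0523), and asRNA:CR46264 without that library or Piwi-MatKD_2 replicate 2 (0.0617 and 0.0659).

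In all, 24 of the 168 genes, 17 higher and 7 lower, could be tested and passed in all 19 alternatives. The 17 include all 6 members of the near-identical group of CG33267 and also jing and CG3777, so they are fewer separate observations. Of the 24 genes aus alone met the limit of 10 counts through 1 line. Those not yet described, named after their values were seen, included the amyloid precursor-like gene Appl, the transcription factor gene bab1 and the homeobox gene OdsH on the higher side, with log2 differences of 1.63, 1.64 and 0.95. On the lower side they included the transcription factor subunit gene Taf3 and the forkhead gene fd102C, both on chromosome 4, at -2.36 and -1.16. Small RNA at bab1 was 167, 132 and 139 CPM in Piwi-MatKD_1 and 520, 376 and 463 CPM in Piwi-MatKD_2, and fd102C held 417, 330 and 343 against 162, 148 and 179 CPM. Neither pair of groups overlapped. Appl held 176, 149 and 146 CPM in Piwi-MatKD_1 and 575, 355 and 523 CPM in Piwi-MatKD_2. The levels of Appl and bab1 lay close to the medians of the CG33267 group, and whether they are separate observations was not tested.

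Gene families picked by symbol after the values were seen were mostly low in Piwi-MatKD_2. Of 24 tested genes for cytoplasmic ribosomal proteins, 4 were lower and 0 higher, against 3.77% lower over all genes, and RpL18 met the limit of 10 counts only through Piwi-MatKD_1. Differences lay above 0 at 2 of the 24, against 789 of all 1699 genes and 169 of the 716 genes of at most 10 CPM, and their median was -0.987. Summed over these genes, small RNA was 277, 280 and 386 CPM in Piwi-MatKD_1 and 140, 155 and 193 CPM in Piwi-MatKD_2, which did not overlap, and 246, 183 and 246 CPM in GFP-MatKD. The called genes were RpL12, RpL18, RpL29 and RpS4, at -1.10, -1.70, -1.64 and -2.16, and none of the 4 calls held under every alternative, with edgeR or DESeq2 adjusted p up to 0.308 for RpL12. Their RNA differences were -0.32, -0.02, 0.05 and -0.19, none of which passed in limma. RpS4 overlaps small nucleolar RNA genes.

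Of 19 genes of the mitochondrial genome 1 was lower, mt:tRNA:Thr-TGT at -2.16, a share near the 3.77% lower over all genes, and 18 had differences below 0. Their summed small RNA was 1017, 2469 and 1862 CPM in Piwi-MatKD_1 and 498, 1248 and 1236 CPM in Piwi-MatKD_2, so the lines overlapped. Of 14 Stellate genes, X-linked repeats that testis piRNAs silence in males, 1 was lower and 0 higher, against 3.77% lower over all genes. All 14 differences were below 0 and their median was -0.667. Differences lay above 0 at 789 of all 1699 genes and at 169 of the 716 genes of at most 10 CPM. The Stellate genes summed to 137, 73.7 and 120 CPM in Piwi-MatKD_1, 62.9, 68.4 and 59.6 CPM in Piwi-MatKD_2 and 214, 168 and 229 CPM in GFP-MatKD, with no overlap between the lines, and near-identical copies reduced the 14 to 5 distinct genes or groups. The median level of a gene was 7.63 CPM in the ribosomal family, 21.5 CPM in the mitochondrial and 5.26 CPM in the Stellate family, and all tested genes of at most 10 CPM had a median difference of -0.600.

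The shares of chromosome arms and gene classes were compared over libraries. Genes placed on Y took 14.32% ± 0.438 of the counts in Piwi-MatKD_1 against 13.96% ± 0.267 for Piwi-MatKD_2 (SD, n = 3, exact two-sided permutation p 0.3). For 2L, chromosome 4, coding genes and pseudogenes the lines did not overlap, and the exact permutation p was 0.1, the smallest that 3 against 3 libraries allow; none of the 7 arms or 4 classes passed after Benjamini-Hochberg adjustment. Chromosome 4 took 1.029% ± 0.0640 of the counts of Piwi-MatKD_1 and 0.937% ± 0.0312 of those of Piwi-MatKD_2 (SD, n = 3). Of its 55 tested genes 11 were called, 6 higher and 5 lower, which is 20.0% against 9.89% over all genes.

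Compared with GFP-MatKD, whose 3 libraries entered the fit, 174 of the 1699 genes (10.2%) were called for Piwi-MatKD_1 and 291 (17.1%) for Piwi-MatKD_2. These comparisons share their control libraries. The GFP-MatKD mean lay between the lines for 65 of the 104 higher genes, below both for 35 and above both for 4. For the 64 lower genes it lay between the lines for 54, below both for 3 and above both for 7. Called genes were selected for a gap between the lines, which by itself favours a place between them for the control. The same counts were not made over all tested genes, so no direction of change is drawn from them. Against GFP-MatKD the log2 difference of Haspin was 0.25 for Piwi-MatKD_1 and 2.83 for Piwi-MatKD_2, and that of nxf2 was 0.37 and -1.16.

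The RNA of the same groups was compared to see whether genes with a small RNA difference also differed in RNA. In limma, 239 of 10767 genes and repeat elements differed between the lines (2.22%), and this count ran from 94 without Piwi-MatKD_1 replicate 1 to 342 without Piwi-MatKD_1 replicate 3; it was also 107 without Piwi-MatKD_1 replicate 2, 140 and 138 without GFP-MatKD replicates 1 and 3, and 65 with the Piwi-MatKD libraries alone. Without the Piwi-MatKD_2 libraries of 21.6 or 8.5 M reads, where ribosomal RNA was high, it was 251 and 173. Of the 168 small RNA genes 146 were tested in RNA. Both readouts called 4 genes, which are 2.38% of the small RNA calls and 1.67% of the RNA calls, and all 4 had the same direction in both. With an RNA test, 3.41% of the higher and 1.72% of the lower genes were called in RNA. Over all 1483 small RNA genes with an RNA test this share was 1.82%. The median RNA log2 difference was -0.0334 at the higher genes, -0.0470 at the lower genes and -0.0157 over all 1483 small RNA genes with an RNA test.

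The 4 genes were mthl8, Sdic1, dpr6 and ph-p. RNA of mthl8 was 12.5 ± 9.30 normalised reads for Piwi-MatKD_1 against 155 ± 66.7 for Piwi-MatKD_2 (SD, n = 3), with 18.1 ± 2.78 in GFP-MatKD. All 3 Piwi-MatKD_2 libraries, at 224, 91.5 and 148, lay above the other 6, and the difference was 3.65 on the log2(value + 1) scale (SE 0.51, limma adjusted p 0.00758); it was lost only with the Piwi-MatKD libraries alone (adjusted p 0.0625). Sdic1 stood at 2.57 ± 1.07 and 17.4 ± 6.19 normalised reads, a difference of 2.36 (SE 0.43, limma adjusted p 0.0252). RNA of SdicC and Sdic2 differed by 1.78 and 0.69 and did not pass (limma adjusted p 0.0807 and 0.727). That of sw differed by -0.01 and was not called.

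The immunoglobulin-family gene dpr6 was higher by 1.25 in RNA (SE 0.24, limma adjusted p 0.0353) and by 0.75 in small RNA (edgeR adjusted p 0.0446), where its counts were near-identical to those of CG43366, cue and sqa. Its small RNA call held in 8 of 19 alternatives and that of ph-p in 13 of 18. The Polycomb-group gene ph-p was lower in both, with 376 ± 17.2 and 178 ± 16.6 normalised reads, an RNA difference of -1.08 (SE 0.18, limma adjusted p 0.0160) and a small RNA difference of -2.21 (SE 0.54, edgeR adjusted p 0.0332). The RNA calls of ph-p, Sdic1 and dpr6 were each lost without Piwi-MatKD_1 replicate 1, where the limma adjusted p was 0.0801, 0.104 and 0.117, and without replicate 2 of that group, where it was 0.0690, 0.0962 and 0.128. Those of Sdic1 and dpr6 were also lost without GFP-MatKD replicate 1 or 3 or the 8.5 M reads of Piwi-MatKD_2, that of Sdic1 without its 73.0 M reads, and that of dpr6 without its 21.6 M reads or GFP-MatKD replicate 2, with limma adjusted p from 0.0540 to 0.0893.

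**Figure D5:**
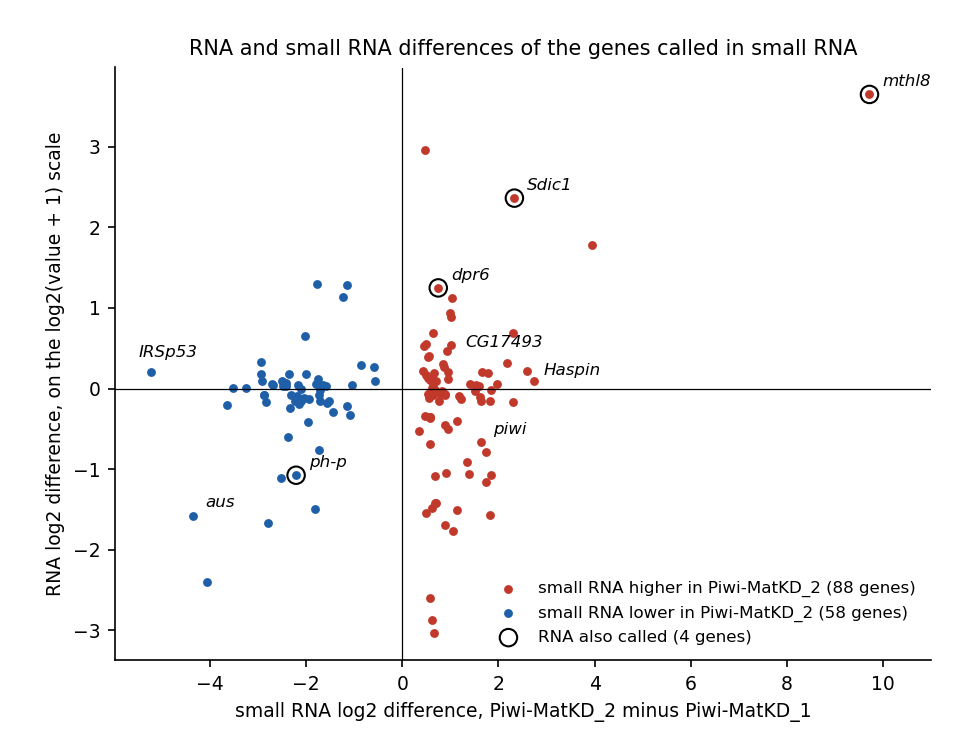
For the 146 called genes with an RNA test the x axis gives the small RNA log2 difference and the y axis the RNA log2 difference, each Piwi-MatKD_2 minus Piwi-MatKD_1, with 88 higher genes in red and 58 lower genes in blue. Circles mark the 4 genes also called in RNA, of which mthl8 has the highest RNA difference, 3.65.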

How the data were processed

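Per the submitters' processing notes, cutadapt, Bowtie 1.2.2, featureCounts and the build BDGP6 were used; their settings, the annotation and the treatment of reads with several matches are not given in the sources used here. The deposited small RNA table holds expected counts per gene from the authors, with no normalisation between libraries. The deposited RNA table gives reads that the authors normalised between libraries, a signal with no stated method. Within 0.01, 100% of its values were whole multiples of 1 step per library, from which reads were recovered as an alternative. Columns were matched by label. The 3 Piwi-MatKD_2 RNA columns were matched only to their group and are named by read totals.

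Expected counts were rounded and tested with edgeR 4.0.16 (quasi-likelihood, TMM, group as the only term) on all 9 small RNA libraries, with a mean of at least 10 counts over the 6 Piwi-MatKD columns. CPM values were computed here from TMM-scaled totals. RNA was tested with limma 3.58.1 (trend) on log2(value + 1), keeping features that reached 1 in 3 or more libraries; this scale understates changes of low genes. DESeq2 1.42.0 served as an alternative, under R 4.3.3. Plots used matplotlib 3.10.9. Positions and classes came from RefSeq (Release 6 plus ISO1 MT), which placed 1666 of the 1699 genes; 17668 of 17773 IDs had a symbol. On simulated counts for these genes, the edgeR test recovered 24% of 2-fold and 70% of 4-fold changes, with 1 false call.

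Named genes were piwi, Haspin and CG17493; among called genes with lines that do not overlap, the 8 highest and 8 lowest differences and the 6 largest rises and falls in CPM, near-identical genes taking 1 place; called genes of the lists; and the 5 largest shares. Members, lists and tests were chosen with earlier results of these data known. No sequences are shown.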

Additional observations from a re-analysis of the deposited data

Results flagged for a closer look

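The difference between the lines is itself a difference between groups under 1 contrast, and it passed at 168 genes in edgeR. Among these, 3 genes passed against GFP-MatKD in both lines with opposite signs. For aus the difference between the lines was -4.352, and against GFP-MatKD it was 2.40 for Piwi-MatKD_1 and -1.95 for Piwi-MatKD_2 (edgeR adjusted p 0.00625 and 0.0134). For mthl8 it was 9.716, a fitted value that depends on the prior count because Piwi-MatKD_1 had 0 rounded counts, with -6.97 and 2.75 (edgeR adjusted p 0.00838 and 0.00833). For su(w[a]), a splicing regulator on the X chromosome, it was 1.504, with -0.85 and 0.66 (edgeR adjusted p 0.00762 and 0.0128). Small RNA at su(w[a]) was 458, 520 and 401 CPM in GFP-MatKD, 275, 257 and 235 CPM in Piwi-MatKD_1 and 846, 621 and 710 CPM in Piwi-MatKD_2, with no overlap between any groups. Groups of 3 libraries are too small for a search for single libraries that stand apart.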

How the results depend on the processing

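The count of 168 genes became 101 with a mean of at least 50 counts, 89 with the 6 Piwi-MatKD libraries alone, and from 45 to 184 with each library left out. With no filter 101 of the 168 genes were among those called, with library totals 124 and with DESeq2 126. The count stayed within 1.5 times with library totals (169), DESeq2 (151), no filter (172), filterByExpr (117), counts not rounded (167) and the 5 largest genes left out of the scaling (170). No called gene changed sign under any of these. With the replicate number as a block, 257 genes passed over 9 libraries and 281 over 6, and all 168 were among the 257. Correlations between libraries of the same number were 0.486, 0.0213 and 0.379. Those between libraries of different numbers ran from -0.55 to 0.333. The numbers thus did not pair all samples, and whether they pair some of them was not tested. For RNA 65 genes and repeat elements passed with the Piwi-MatKD libraries alone and from 94 to 342 with each library left out. No paired RNA fit was made, since the Piwi-MatKD_2 RNA columns bear the names of small RNA libraries and were matched to their group alone, which was a choice of mapping.

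Of 33 named called genes 7 passed in all 19 alternatives, and mthl8, SdicC, CG10375, Ndfip and mino in the 18 where they could be tested, which leaves out a mean of at least 50 counts. The first 4 of these met the limit of 10 counts through 1 line. Myo81F reversed to -0.0637 with library totals and -0.0907 with a mean of at least 50 counts. WDY reversed to -0.174 and -0.203 under the same settings, -0.0154 with the 6 libraries alone, -0.00912 with the replicate block over 6 libraries and -0.00877 without Piwi-MatKD_2 replicate 2, with -0.00877 to 0.136 over the libraries left out. With 1 library left out the RNA difference ran from -0.137 to 0.519 for Haspin and from -0.0672 to 0.419 for CG17493. Without the 5 largest genes the difference in share, in percentage points, reversed to 0.304 on 2R, -0.180 on 3L, -0.761 on 3R and 0.00621 for long non-coding RNA genes. With 1 library left out these ran from -0.585 to 0.0396, from -0.0282 to 0.265, from -0.00137 to 0.635 and from -0.0677 to 0.00142. The cause of these reversals was not tested.

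The depth of 1.88 to 3.38 M counts leaves genes of a few CPM with few counts, 1 count being 0.311 to 0.648 CPM. Floors cover counting error only, since reads without molecular identifiers are not independent molecules.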
